A study of Mus musculus with 4 samples.

Results

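Upper villus enterocytes below the tip are the fat-absorbing epithelial cells that stand between the middle of the intestinal villus and its outermost cells. They were taken here as cells in which Apoa4 made up at least 2% and Ada less than 0.1% of the unique molecular identifiers (UMIs, one per captured transcript molecule). The other limits were at least 500 UMIs, at least 250 genes, at most 25% mitochondrial UMIs, Fabp1 at 0.5% or more, Rbp2 at 1% or more and Fabp6 under 0.3%, with Muc2 under 0.2%, fewer than 5 UMIs each of Mki67 plus Top2a and of Chga plus Chgb, and no Ptprc. By this rule 3368 of 44277 barcodes were members, out of 25788 barcodes that passed the limits on UMIs, genes and mitochondrial share. Since the rule uses transcript shares, the levels of its 11 genes describe the choice and are not a result.

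Male C57BL/6J mice received high-fat food together with l-NAME, which blocks nitric oxide synthesis. One group was the control, and the food of the other held indolepropionic acid (IPA), a tryptophan metabolite of gut bacteria, at 562.5 mg per kg. Mice of both groups went onto their food when 8 weeks old, stayed on it for 7 weeks and were 15 weeks old when sampled. Each group had 2 samples, each a pool of 2 mice, and all mice received the high-fat diet and l-NAME, so no sample shows the cells without them. The epithelial layer of jejunum and ileum was stripped with EDTA and DTT, the Peyer's patches having been removed, and DAPI-negative cells were sorted for a droplet assay that reads transcript 3′ ends. A number from 1 to 4 on each barcode separated 4 libraries, and no label or header used here tied a number to a sample. No comparison of diets was therefore made, and every value is given by library number.

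Enterocytes are born in the crypt and move up the villus over a few days until they are shed at the tip, and they change their transcripts on the way. Cells near the base make antimicrobial proteins, cells of the middle carry much of the machinery for sugars and amino acids, and cells toward the top make more of the apolipoproteins that coat chylomicrons, the particles in which dietary fat leaves the gut. At the very tip enterocytes take up a further set of genes for purine handling and cell adhesion, among them Ada (adenosine deaminase) and Nt5e (which makes adenosine from AMP). Apoa4 encodes apolipoprotein A-IV, a chylomicron coat protein made in quantity by villus enterocytes.

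Apoa4 is the gene whose share sets the zone, so the 250 bases before its start are shown with those of Enpp3. Enpp3 is a marker of the upper villus and tip that the rule did not use. Capitals mark a match to either of 2 letter strings that the nuclear receptor HNF4 is known to bind, CAAAGTCCA or CAAAGTTCA, searched on both strands. Hnf4a itself is described with the regulators below.
Apoa4, chr9:46240594-46240843, plus strand: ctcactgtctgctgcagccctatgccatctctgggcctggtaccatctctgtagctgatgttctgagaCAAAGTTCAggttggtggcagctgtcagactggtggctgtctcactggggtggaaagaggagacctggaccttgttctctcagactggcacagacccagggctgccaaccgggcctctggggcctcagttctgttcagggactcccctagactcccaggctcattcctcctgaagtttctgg
Enpp3, chr10:24836196-24836445, minus strand: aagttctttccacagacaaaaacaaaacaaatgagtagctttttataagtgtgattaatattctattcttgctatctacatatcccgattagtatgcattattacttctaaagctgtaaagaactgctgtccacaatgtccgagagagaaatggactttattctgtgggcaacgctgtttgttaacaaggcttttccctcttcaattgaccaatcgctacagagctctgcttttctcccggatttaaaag
Both come from RefSeq on GRCm38.p6 and are written 5′ to 3′ along the gene's strand. The match in Apoa4 began 182 bases before the gene's start. Of 32851 windows of 250 bases in the same table, 235, or 0.715%, held either string. Of the 307 genes higher here than in mid villus cells, described below, 245 had a window and 5 of those, or 2.04%, held a match. The share was 3 of 343, or 0.875%, for the 428 genes lower than in mid villus and 50 of 5223, or 0.957%, for all genes tested. A match is a string of letters and does not show that a factor binds there.

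Members numbered 1179, 318, 773 and 1098 in libraries 1 to 4. They made up 27.4% (95% exact Clopper-Pearson interval 26.1 to 28.8), 6.31% (5.65 to 7.02), 26.4% (24.8 to 28.1) and 21.8% (20.6 to 22.9) of the gated enterocytes, meaning all cells with Fabp1 at 0.5% or more that met the same exclusions. The interval of library 2 lay below those of the other libraries. These intervals and all others given here cover counting error only and leave out the spread between mice. Library 2 was also low in tip cells, with 104 against 461, 192 and 256 in libraries 1, 3 and 4. Among cells that passed every limit apart from Ada, members were 71.9%, 75.4%, 80.1% and 81.1%. The order of the libraries by this last share differed from their order by share of enterocytes.

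**Figure D1:**
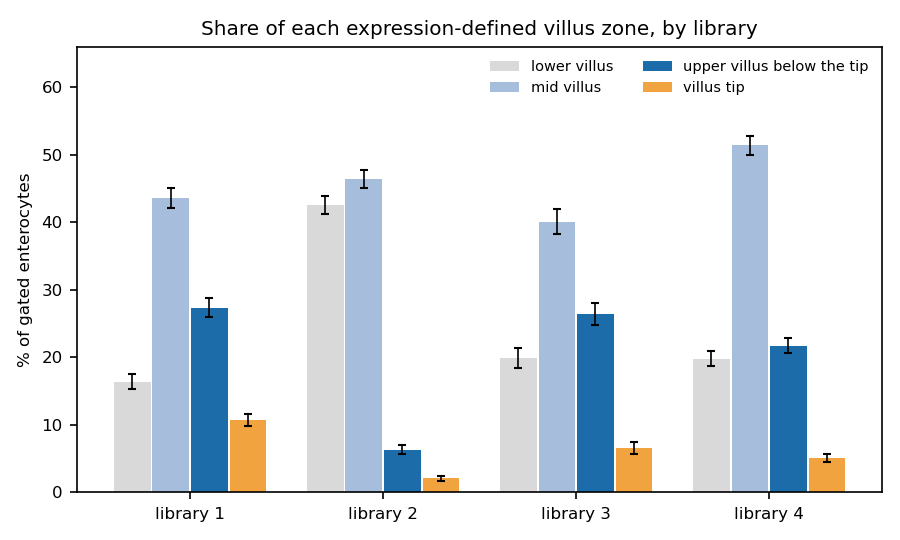
Bars give the share of gated enterocytes (%) that fell in each of the 4 expression-defined zones of each library, with exact 95% binomial intervals for counting error. The upper villus bar of library 2 stands at 6.31%, against 21.8% to 27.4% in the other libraries.

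Depth per cell differed between zones and between libraries. The median was 11623, 13334, 21524 and 22246 UMIs per member in libraries 1 to 4, against 28267 to 34856.5 in mid villus cells and 9230.5 to 14119 in tip cells. Members summed to 4403000 UMIs in library 2 and to between 15707900 and 23079000 in the others, so that rare transcripts were least precisely measured in library 2. Mitochondrial transcripts made up a median of 13.0% to 14.5% of UMIs in members and 11.5% to 12.5% in mid villus cells. Cells under 1000 UMIs numbered 3, 2, 22 and 1, and such a cell could meet the limit on Ada only with no Ada UMI. Of barcode sequences, 1 occurred in more than 1 library among members and 75 did so among all cells passing the quality limits. Marker lists of other cell types were low but present: the 8 goblet markers summed to between 245 and 518 CPM, the UMIs of a gene per 1000000 UMIs, the 8 Paneth markers to 215 to 518 CPM, the 8 enteroendocrine markers to 8.58 to 35.5 CPM and the 8 tuft markers to at most 1.72 CPM. The 12 T-cell markers summed to 16.8, 2.27, 55.6 and 1.56 CPM, the 8 B-cell and plasma-cell markers to 225, 12.04, 116 and 10.1 CPM, and the 8 myeloid markers to at most 5.98 CPM. Ptprc was at 0 by the rule. The part of these transcripts in the results was not tested.

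The label was checked against Apoc3, Enpp3 and Pmp22, the markers that the rule did not use. All 3 were at least 1.5-fold lower in members than in tip cells in every library, with a median log2 ratio of -1.19. They therefore cannot tell this zone from the tip. Apoa4, which it did use, held a median of 3.19%, 2.79%, 3.18% and 2.76% of the UMIs of a member in libraries 1 to 4, by choice never below 2%. Apoc3, an apolipoprotein that slows the clearance of triglyceride-rich particles, was at 4306, 3851, 5547 and 4748 CPM and had at least 1 UMI in all but 4 members. Enpp3, an ectoenzyme that splits extracellular nucleotides, was at 513, 415, 494 and 372 CPM. Both were present at like levels in all libraries. Pmp22, a membrane protein of myelin and epithelia, was at 188, 293, 212 and 250 CPM.

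Pmp22 was spread unevenly over the cells. No Pmp22 UMI was found in 745 of 1179, 195 of 318, 342 of 773 and 547 of 1098 members, and the 10% of members with the most held 71.3%, 77.2%, 64.3% and 63.8% of its UMIs. By comparison, the 10% of members with the most Enpp3 held 29.2% to 35.3% of its UMIs. Members with a Pmp22 UMI were 36.8%, 38.7%, 55.8% and 50.2%, while T cells (cells with Ptprc and at least 3 UMIs of T-cell receptor and CD3 genes), which should lack it, had one in 7.95% in library 1 at a median depth of 3831 UMIs and in 14.9% in library 3 at 4000 UMIs. After every cell was thinned to 2000 UMIs, which left out 19, 15, 25 and 7 shallower members, the shares were 18.8%, 21.5%, 24.9% and 23.6% in members and 4.81% and 7.21% in T cells of libraries 1 and 3. Libraries 2 and 4 had fewer than 20 T cells. The 3 markers outside the rule were therefore detected in each library, although most members of libraries 1 and 2 held no Pmp22 UMI.

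Mid villus cells were the neighbours below, chosen by the same rule with Apoa4 from 0.5% to under 2% (1880, 2340, 1174 and 2595 cells). UMIs were summed over cells per library and zone, and a gene was called when it reached a mean of 10 CPM in either zone and differed by at least 1.5-fold the same way in all 4 libraries, on CPM plus 1. No p-value is given, since zones were cut from the same transcripts that are compared. Of 6462 genes, 307 (4.75%) were higher in members and 428 (6.62%) were lower, the 11 genes of the rule being left out. The median log2 ratio of all genes tested was 0.04, so the scale itself shifted little.

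The genes furthest above mid villus included several of membranes and the cell surface. Enpp3 rose from 64.6, 32.5, 77.4 and 44.4 CPM in mid villus cells to the levels given above, a median log2 ratio of 3.01 (range over libraries 2.66 to 3.64), and Pmp22 from 17.3, 21.4, 50.6 and 34.3 CPM, a median of 3.10. Both genes were higher in members in each library with no overlap between the zones. Tm4sf4, a tetraspanin-like membrane protein, was at 495, 609, 801 and 972 CPM against 77.9, 47.2, 217 and 188 CPM. Clca4a, a member of the calcium-activated chloride channel regulators, was at 108, 199, 75.4 and 96.4 CPM against 13.2, 8.57, 25.6 and 14.1 CPM. Gprc5a (an orphan receptor), Tubb2a (a beta-tubulin), Pmepa1 (an inhibitor of TGF-beta signalling), Osbpl1a (an oxysterol-binding protein), the unnamed transcript 4930539E08Rik and Tmprss15 (enteropeptidase, which activates trypsinogen) completed the 10 genes of largest ratio, with median log2 ratios between 2.19 and 2.64. Tmprss15 reached 49.7, 26.8, 8.79 and 19.6 CPM in members and was lowest in library 3.

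The genes furthest below mid villus included genes of translation and of the villus base. Ribosomal proteins and translation factors stood out as a list: 32 of 34 were lower, with a median log2 ratio of -1.40. Rps24, a small-subunit protein, was at 120, 139, 186 and 171 CPM against 653, 878, 671 and 823 CPM in mid villus cells. Eef1a1, which brings aminoacyl-tRNA to the ribosome, was at 564.5, 671, 803 and 959 CPM against 1488, 1817.5, 1671 and 1861 CPM. Every library showed the lower level for both. Depth per cell and mitochondrial share moved with this list and their part in it was not tested. Over the settings tried, which included cells of at least 5000 UMIs and cells of at most 15% mitochondrial UMIs, between 21 and 33 of the 34 were lower. Against tip cells, whose median depth was 9230.5 to 14119 UMIs, 0 of 34 were called in either direction, with a median log2 ratio of -0.05.

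Genes of the villus base and of defence were lower as well. Of 12 measured villus-base genes, 11 were lower than in mid villus cells, with a median log2 ratio of -1.67. Reg1, a secreted lectin-like protein, was at 588, 298, 172 and 235 CPM against 2660, 2369, 1620 and 1751 CPM. Lypd8, which keeps flagellated bacteria off the epithelium, was at 674, 259, 157 and 152 CPM against 2571, 2382, 1037 and 1208 CPM. Among 11 measured antimicrobial and defence genes, 6 were lower and 1, Itln1 (an intelectin that is also a Paneth and goblet product), was higher with a median log2 ratio of 1.39. Gpx1, a glutathione peroxidase, was lower by a median log2 ratio of -2.75, and 12 of 23 glutathione and NRF2 genes were lower with 0 higher. Gsta1, a glutathione transferase, was at 228, 118, 329 and 447 CPM against 986, 878, 1131 and 1208 CPM in mid villus cells. Car4, a membrane carbonic anhydrase, showed the largest fall, a median log2 ratio of -3.01.

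The called genes of fat handling differed in direction between its steps. Of 18 measured genes of chylomicron assembly, 2 were higher than in mid villus cells and 0 lower: Apoc3 with a median log2 ratio of 1.28 and Apoc2, the activator of lipoprotein lipase, with 0.72. Apob, the structural protein of chylomicrons, was at 2061, 2075, 2252 and 2160 CPM against 1245, 1138.5, 1504 and 1347 CPM, above mid villus in each library but short of 1.5-fold in at least 1. Mttp, which loads fat onto Apob, was at 2187, 2043, 2022 and 2188 CPM against 1999, 1768, 1958 and 1911 CPM. Of 19 measured genes of fat uptake and storage, 4 were higher: Slc27a4 (a fatty acid transporter, log2 0.89), Acsl3 (an acyl-CoA synthetase, 1.35) and the phosphatidate phosphatases Lpin2 (0.89) and Lpin3 (0.80). Fatty acid oxidation went the other way, with 5 of 29 lower and 0 higher, among them Acaa2 (a thiolase, -0.91) and Cyp4a10 (an omega-hydroxylase, -1.39). Over the settings tried, 1 to 3 chylomicron genes and 1 to 5 uptake and storage genes were higher. Oxidation genes that were lower numbered 1 to 7. Of all genes, 4.75% were higher and 6.62% lower, and at their lowest these counts were near or under those shares.

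Some interferon-stimulated genes, antigen-presentation genes and regulators also differed from mid villus. Of 18 measured MHC class I and peptide-loading genes, 2 were higher and 0 lower. Of 21 measured transcription factors of enterocyte identity and region, 1 was higher and 1 lower, near the 4.75% and 6.62% of all genes. Of 22 measured interferon-stimulated genes, 8 were higher in members in every library, with a list median of 0.62. Between 2 and 9 were higher over the settings tried. Irf7, the transcription factor that amplifies the type I response, was at 348, 94.3, 101 and 77.6 CPM against 138, 38.7, 47.1 and 40.6 CPM. H2-K1, the heavy chain of an MHC class I molecule, had a median log2 ratio of 1.02 and B2m, its light chain, 0.82. Klf4, a regulator of differentiation, was at 399, 392, 329 and 375 CPM against 156, 124, 147 and 129 CPM, and Hnf4a, a nuclear receptor that maintains enterocyte identity, at 184, 171, 157 and 157 CPM against 106, 99.2, 99.3 and 97.2 CPM. Smad7, an inhibitor that BMP and TGF-beta signalling induces, had a median log2 ratio of 0.84, and 1 of 11 measured BMP genes was higher. Cell-junction and brush-border genes were mostly not called, with 2 of 19 higher and 0 lower in the first list and 3 of 19 higher and 1 lower in the second, among the higher Krt20 (0.91), a keratin of mature enterocytes.

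Tip cells were the neighbours above, chosen by the same rule with Ada at 0.1% or more (461, 104, 192 and 256 cells). Of 6369 genes, 387 (6.08%) were higher in members and 297 (4.66%) were lower, and the median log2 ratio of all genes tested was 0.13. With the mean of per-cell CPM in place of summed UMIs, 311 were higher and 210 lower. Of the 387 and 297, only 230 and 192 were called in that setting too. Tip cells of library 3 included 50 under 1000 UMIs, 26.0% of them. Without library 2, the one with fewest tip cells, 569 genes were higher and 373 lower. Leaving out any library loosens the rule, and the counts were 457 and 334, 425 and 327, and 442 and 315 without libraries 1, 3 and 4.

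The genes furthest below the tip ranged from nearly absent in members, as for Nt5e, to well detected, as for Clca4a. Nt5e was at 2.43, 2.27, 4.27 and 1.17 CPM in members and at 144, 151, 112 and 168 CPM in tip cells, a median log2 ratio of -5.47. Slc28a2, a concentrative nucleoside transporter, was at 3.76, 5.68, 9.49 and 1.99 CPM against 209, 143, 180 and 226 CPM. A Nt5e UMI was found in 2.46%, 0.943%, 6.47% and 1.82% of members, below the shares in T cells (34.3% and 40.4% in libraries 1 and 3), which carry Nt5e as a surface enzyme and are no background for it. Cldn4, a claudin, was at 14.7, 13.4, 12.1 and 9.97 CPM against 328, 276, 244 and 193 CPM. S100a6 and S100a14 (calcium-binding proteins), Ly6m (a GPI-anchored protein), Slc23a4 (a nucleobase transporter homologue), Capn2 (a calpain) and Clca4a lay between -4.78 and -3.43 on the same scale. Junction genes were lower as a list in 7 of 19 cases and higher in 0, among them Epcam (-0.86), Cdh1 (E-cadherin, -1.04) and Ocln (occludin, -0.84), although between 1 and 8 of them were lower over the settings tried.

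Genes above the tip included many transporters and enzymes of absorption. Of 16 sugar genes, 7 were higher in members and 0 lower: Sis, sucrase-isomaltase of the brush border, at 2871, 2594, 2310 and 2399 CPM against 1185, 1017, 661 and 875 CPM, Slc5a1, the sodium-glucose transporter, at 2215, 1923, 1530 and 1393 CPM against 1244, 1060, 577 and 607 CPM, and Slc2a2, G6pc, Fbp1, Pck1 and Slc37a4 with median log2 ratios from 1.13 to 1.53. The last 4 serve glucose release and gluconeogenesis. Of 22 measured genes for peptides and amino acids, 11 were higher and 1, Tmprss15, was lower. Anpep, an aminopeptidase of the brush border, was at 2364, 2059.5, 1266 and 1239.5 CPM against 1051, 993, 451 and 405 CPM. Slc7a8 and Slc43a2, carriers of neutral amino acids, had ratios of 1.69 and 1.64. Fatty acid oxidation genes, lower than in mid villus, were higher than at the tip in 5 of 29 cases, with Ppara (0.85), the receptor that drives them, and Angptl4 (1.86), a secreted inhibitor of lipoprotein lipase, among them. Of 11 measured retinoid genes 5 were higher, including Aldh1a1 (1.42) and Lrat (1.20). Over the settings tried, 5 to 8 sugar, 6 to 12 peptide and amino acid, 1 to 9 oxidation and 3 to 5 retinoid genes were higher. Of all genes 6.08% were higher, and the oxidation count was under that share at its lowest.

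Genes called against both neighbours mostly lay between them, and few were highest or lowest in members. Of 6176 genes tested in both comparisons, 111 (1.8%) were above mid villus and below the tip, and 63 (1.02%) were below mid villus and above the tip. The 111 were 36.2% of the genes above mid villus and 37.4% of those below the tip. Apoc3, Enpp3, Pmp22 and Clca4a were among the first set and Reg3a, Gstm1, Maob and Ccl25 among the second. Reg3a, an antibacterial lectin, was at 303, 312, 412 and 400 CPM in members, 973, 1011, 1398 and 1286 CPM in mid villus and 66.5, 127, 130 and 172 CPM at the tip. Ccl25, the chemokine that draws lymphocytes to the small intestine, was at 383, 468, 447 and 507 CPM in members and at 864 to 1033 CPM in mid villus.

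A set of 7 genes (0.113%) was above both neighbours in all 4 libraries, and 2 (0.0324%) were below both. The 9 are named because of these calls. Cubn, the receptor that takes up vitamin B12 with intrinsic factor, was at 96.3, 133, 197 and 183 CPM in members, 48.5, 47.8, 118 and 94.7 CPM in mid villus and 16.8, 34.9, 59.3 and 42.4 CPM at the tip. Slc5a12, a sodium-coupled lactate transporter, was at 119, 150, 108 and 106 CPM, against 56.4 to 69.9 CPM in mid villus and 18.5 to 34.3 CPM at the tip. Slc23a1, a vitamin C transporter, was at 113, 119, 131 and 131 CPM, against 62.1 to 84.9 CPM and 61.8 to 81.2 CPM. Aqp1, a water channel, was at 76.8, 108, 98.4 and 76.1 CPM, against 34.6 to 47.8 CPM and 40.1 to 51.8 CPM. Pid1, Plscr4 (a scramblase family member) and Nat8f2 peaked at lower levels, between 8.66 and 34.2 CPM in members. Krt19, a keratin of simple epithelia, fell to 145, 193, 202 and 227 CPM from 454, 631, 560 and 595 CPM in mid villus and stood at 354, 432, 463 and 636 CPM at the tip. Gjb1, a gap junction protein, was at 5.98 to 6.97 CPM in members and at 10.6 to 12.6 CPM and 15.5 to 33.7 CPM in the neighbours.

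**Figure D2:**
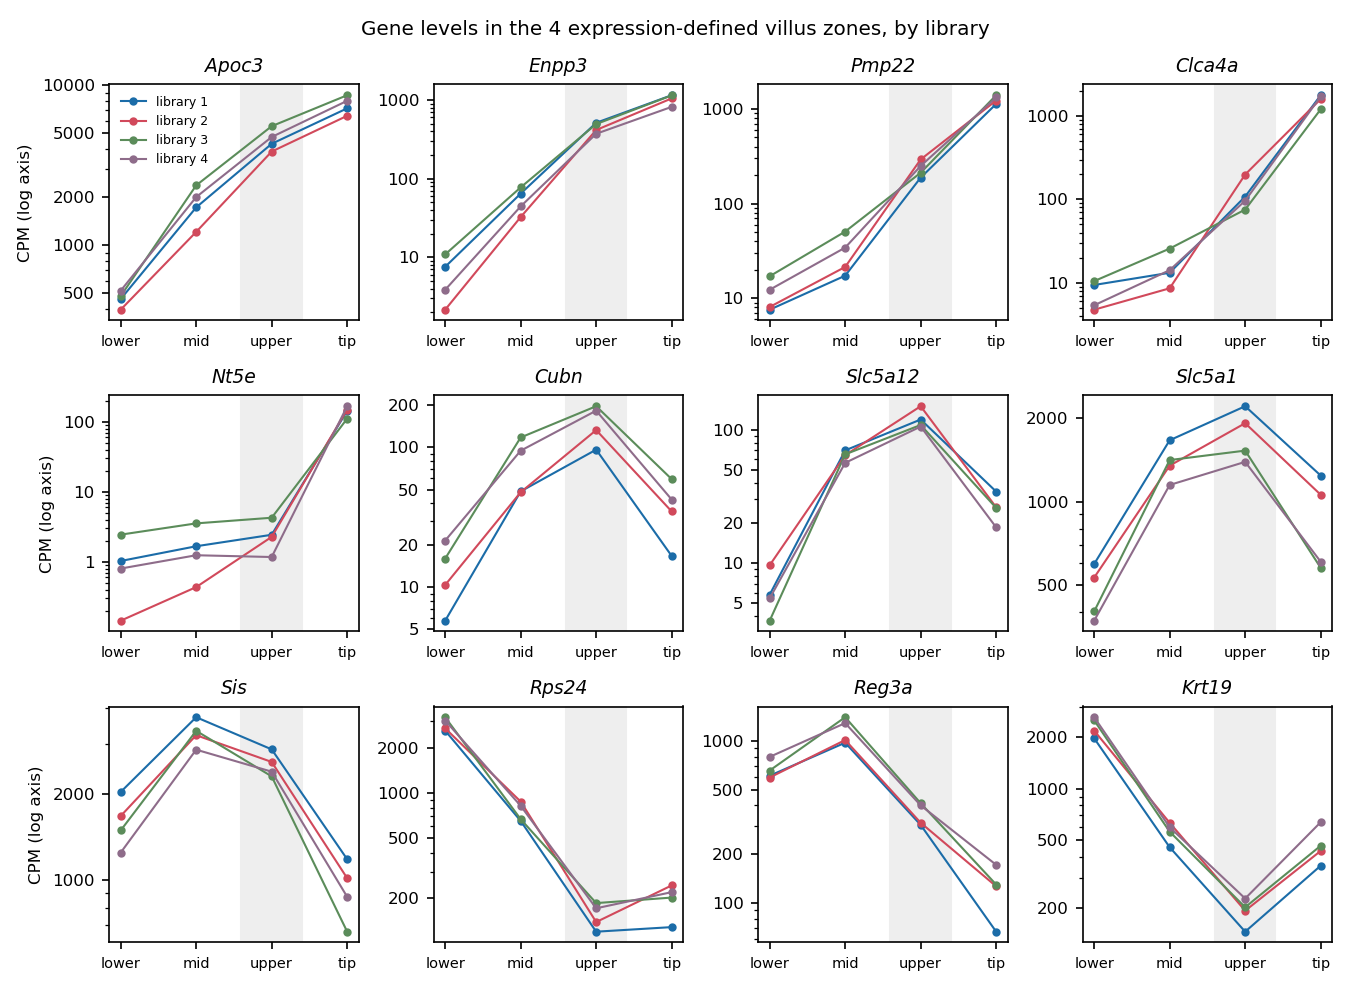
Each panel gives the CPM of 1 gene (log axis) in the lower villus, mid villus, upper villus (shaded) and tip cells, with 1 line per library. Apoc3, Enpp3 and Pmp22 rise toward the tip, Nt5e stays under 5 CPM until the tip, Cubn and Slc5a12 are highest and Krt19 is lowest in upper villus cells.

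**Figure D3:**
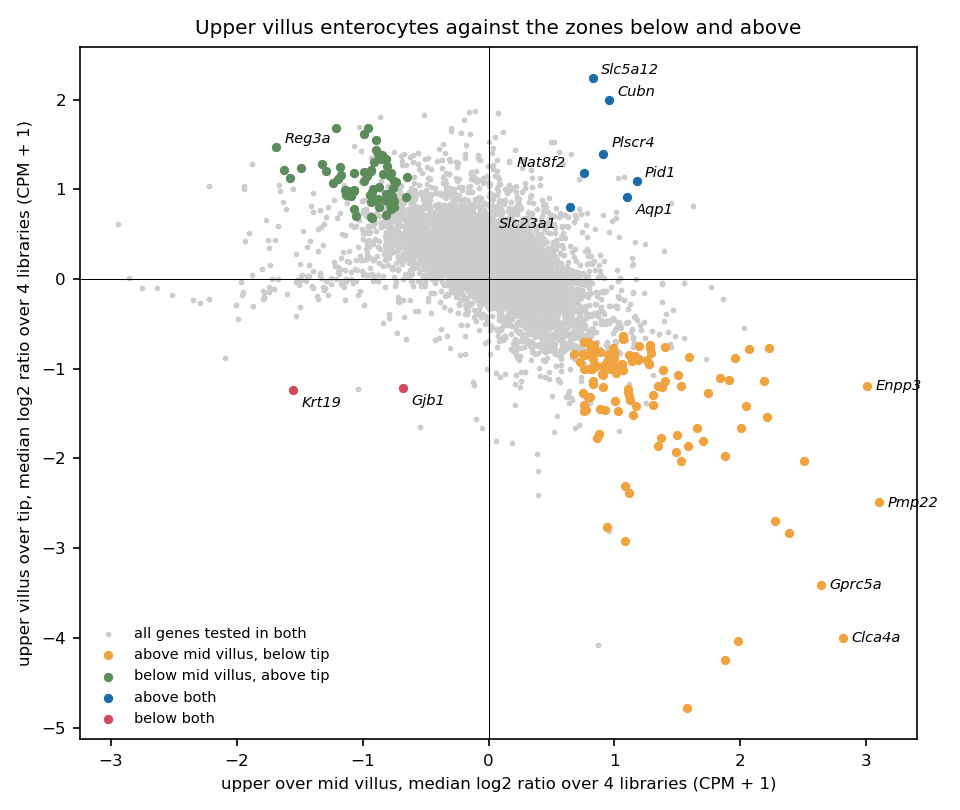
Each point is 1 of 6176 genes, placed by its median log2 ratio over the 4 libraries of upper villus to mid villus cells (horizontal) and of upper villus to tip cells (vertical), on CPM plus 1. Colours mark the 111 genes above mid villus and below the tip, the 63 with the opposite pattern, the 7 above both and the 2 below both.

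Lower villus cells (Apoa4 under 0.5%, any Rbp2, 707, 2146, 583 and 998 cells) gave the widest contrast. Of 7114 genes, 1085 (15.3%) were higher in members and 1836 (25.8%) lower, with a median log2 ratio of -0.13 over all genes tested. Enpp3, at 7.57, 2.16, 10.9 and 3.86 CPM there, had a median log2 ratio of 6.08. Of 18 chylomicron genes 11 were higher and 0 lower, and of 19 fat uptake and storage genes 14 were higher and 0 lower, against 2 and 4 when set against mid villus. All 34 translation genes were lower, with a list median of -3.30, and 16 of 22 interferon-stimulated genes were higher with 0 lower. In lower villus cells the 18 crypt and progenitor genes summed to 1159, 1045, 1218 and 967 CPM. Members held 177, 153, 210 and 158 CPM of them. B-cell and plasma-cell markers summed to 2007, 9.34, 1639 and 9.47 CPM in lower villus cells. The part of immature or mixed cells in this contrast was not tested. Of 7 measured Paneth markers 0 were called in either direction. Among them Defa24, an alpha-defensin, was at 3413, 1286, 155 and 1036 CPM in the lower villus cells and at 104, 182, 227 and 64.1 CPM in members, so that library 3 ran the other way.

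Within members, levels were followed along the Apoa4 share, in cells at 2 to 3%, 3 to 4%, 4 to 6% and 6% or more, with Apoa4 left out of the total. The bins held 509, 359, 272 and 39 cells in library 1 and 663, 273, 140 and 22 in library 4, and the last bin of library 2, with 9 cells, was not used. Of 6766 genes, 439 (6.49%) were higher and 401 (5.93%) lower by at least 1.5-fold in the last bin of libraries 1, 3 and 4. The rule asks for the fold in every library used, so leaving 1 out loosens it and higher counts are built in. The counts were 822 and 628 without library 1, 819 and 605 without library 3, and 668 and 611 without library 4. In the last bin 1 UMI was worth 2.92, 2.19 and 5.94 CPM in those libraries, so single values of weakly expressed genes there rest on few molecules. With bins at 2.5%, 3% and 4%, where all 4 libraries could be used, 276 of 6564 (4.2%) were higher and 287 (4.37%) lower. Of these, 186 and 184 were also called by the first bins, 67.4% and 64.1% of the second lists and 42.4% and 45.9% of the first. Depth fell along the bins, from a median of 22893 to 9005 UMIs per cell in library 1, and 4 of 7 measured Paneth markers were higher in the last bin. The part of either in these counts was not tested.

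Along the Apoa4 share, 11 of 23 glutathione and NRF2 genes and 9 of 34 nuclear respiratory-chain genes were lower with 0 higher. The same held for 6 of 29 fatty acid oxidation, 5 of 12 villus-base, 4 of 16 sugar and 4 of 10 retinoid genes. Of 19 genes each, 5 of fat uptake and storage, 5 of the brush border and 4 of cell junctions were higher with 0 lower. Of all genes, 6.49% were higher and 5.93% lower. The fat uptake and storage list had a median log2 ratio of 0.01. Of 22 peptide and amino acid genes 2 were higher and 0 lower, but the list median was -0.21. Of 15 purine and tip genes 2 were higher and 1 lower. Enpp3 went from 343, 322, 336 and 274 CPM in the first bin to 916, 701, 917 and 793 CPM at 4 to 6%, and every library rose. Clca4a went from 47.3, 106, 53.5 and 60.9 CPM to 311, 395, 120 and 175 CPM, and Gprc5a from 4.78, 8.91, 3.68 and 15.3 CPM to 30.3, 32.4, 21.7 and 46.8 CPM. Slc23a4 had the largest median log2 ratio of last to first bin, 3.41, and rose from 4.63 to 5.97 CPM to between 24.3 and 33.0 CPM at 4 to 6%. Sis fell from 3446, 2989, 2842 and 2701 CPM to 1945, 1868, 1374 and 1622 CPM. Gsta1 fell from 326, 150, 432 and 532 CPM to 59.1, 62.8, 114 and 257 CPM. Aqp8, a water and peroxide channel, fell in the last bin to 0, 2.19 and 0 CPM in libraries 1, 3 and 4, where no UMI allows up to 8.75 CPM in library 1 and 17.8 CPM in library 4. Cubn and Slc5a1 were not called along the bins, and 0 of the 34 translation genes were called in either direction.

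**Figure D4:**
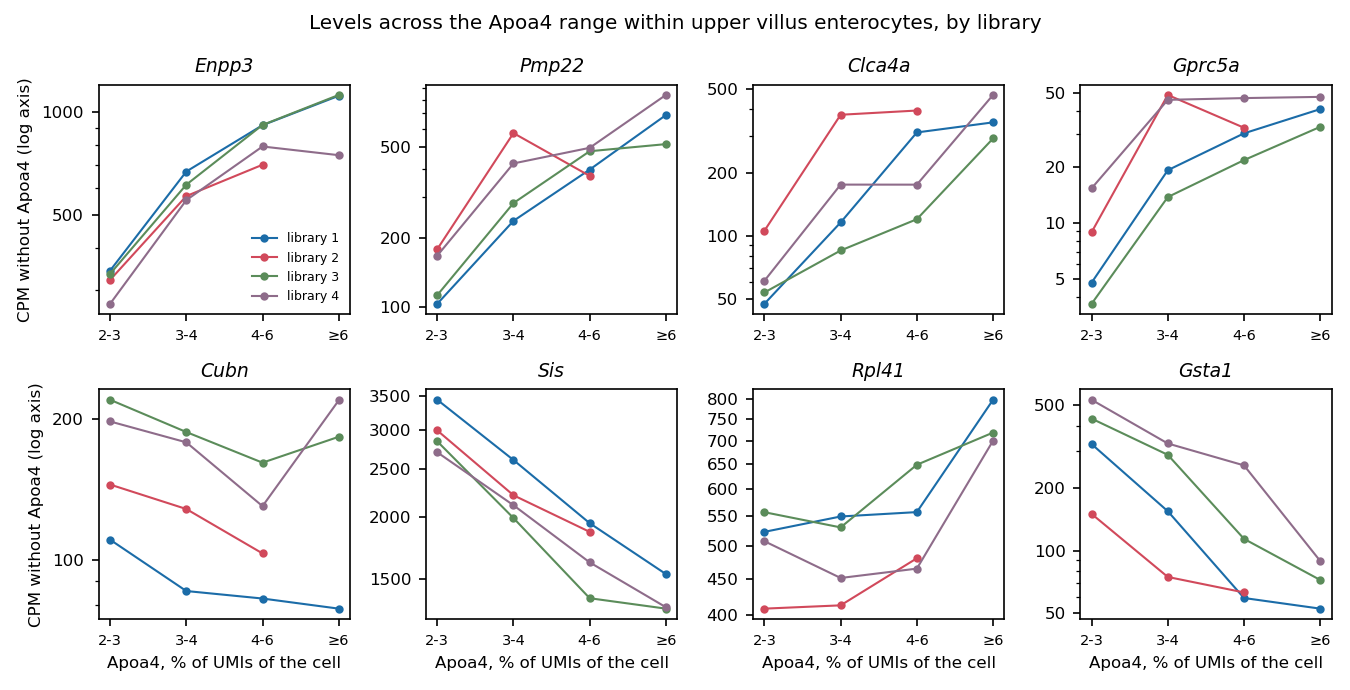
Each panel gives the CPM of 1 gene, with Apoa4 left out of the total (log axis), against the Apoa4 share of the cell in 4 bins, with 1 line per library. Bins under 20 cells are not drawn. Enpp3, Pmp22, Clca4a and Gprc5a rise from the first bin to 4 to 6% in every library while Sis and Gsta1 fall, and Rpl41, of the large ribosomal subunit, lies between 409 and 799 CPM.

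Cells just outside and just inside the limits of the rule are given without a test. The 606 cells with Apoa4 from 1.8% to under 2% had Enpp3 at 215, 169, 191 and 150 CPM, and the 486 cells with 2% to under 2.2% had 261, 212, 222 and 177 CPM. The 73 cells with Ada from 0.08% to under 0.1% had Pmp22 at 863, 407, 617 and 881 CPM, and the 62 tip cells with 0.1% to under 0.12% had 699, 925, 1267 and 543 CPM. Members with no Ada UMI at all were 31.2%, 67.9%, 25.9% and 42.3%.

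Between libraries, members differed most in genes of interferon response and of MHC class II. A gene was counted for a library when it was at least 2-fold above, or below, each of the other 3 libraries and reached 10 CPM in the highest. Of 6578 genes, 47 (0.715%) were above in library 1 and 0 (0.0%) below. In library 2, 13 (0.198%) were above and 7 (0.106%) below, in library 3, 8 (0.122%) and 7 (0.106%), and in library 4, 3 (0.0456%) and 10 (0.152%). The 4 libraries are single measurements, so no spread within a group can be set beside these differences, and they cannot be read as a difference between diets.

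Interferon-stimulated genes in library 1 made up the largest group, with 21 of 25 measured members of the list above each other library. Isg15, a ubiquitin-like modifier, was at 554, 70.0, 89.4 and 27.6 CPM in libraries 1 to 4. Oasl2, an antiviral synthetase-like protein, was at 266, 36.3, 45.1 and 34.5 CPM, and Oas3, which makes the activator of RNase L, at 85.2, 6.59, 9.17 and 6.76 CPM. Trim30a, Slfn2, Oas1g and Ifi44, other interferon-induced genes, were at 68.0, 33.1, 21.9 and 18.1 CPM in library 1 and under 6 CPM in each other library. With Ifi27l2b left out, the shift was not confined to few cells. The 27 remaining genes of the list held a median of 0.273%, 0.0559%, 0.0602% and 0.0516% of a member's UMIs. In library 1 the lowest 10% of members reached up to 0.151%, above the median of each other library. The list with Ifi27l2b summed to 5518, 2047, 2317 and 1971 CPM, a smaller relative difference than these medians show. Isg15 had a UMI in 91.3%, 30.8%, 36.1% and 23.6% of members, and in 29.7% and 19.2% of T cells of libraries 1 and 3. After thinning to 2000 UMIs the shares were 56.3%, 7.92%, 10.7% and 4.77% in members and 15.1% and 8.76% in T cells, so that the share of library 1 was above both T-cell shares, that of library 3 lay between them and those of libraries 2 and 4 were below both. Of 4 measured interferon-gamma genes, 3 were above in library 1, among them Igtp at 49.5, 12.3, 13.1 and 6.37 CPM. The order of library 1 over the others held in mid villus cells too, with Isg15 at 236, 38.0, 40.8 and 17.1 CPM.

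MHC class II genes, which present peptides to CD4 T cells and which enterocytes can be induced to make, were above in library 2 in 6 of 8 cases and below in library 4 in 6 of 8. Cd74, the invariant chain, was at 191, 785, 155 and 12.5 CPM. H2-Aa was at 37.8, 193, 31.8 and 2.30 CPM and H2-Ab1 at 80.2, 233, 44.8 and 11.4 CPM, both chains of class II molecules. These transcripts were concentrated in part of the cells: 56 of 318 members of library 2 (17.6%) had at least 0.3% class II UMIs and held 82.7% of all class II UMIs there, against 49 of 1179 (4.16%), 31 of 773 (4.01%) and 1 of 1098 (0.0911%) in libraries 1, 3 and 4. The 56 cells had a median of 15784.5 UMIs and 2.76% Apoa4, near the 12892 UMIs and 2.81% Apoa4 of the other members of that library. Cd74 had a UMI in 32.1%, 52.8%, 29.6% and 7.38% of members and in 11.6% and 16.5% of T cells of libraries 1 and 3, whose median depth was lower, as given above. After thinning the shares were 13.5%, 30.03%, 9.63% and 1.74% in members and 5.45% and 8.11% in T cells. The limit of 0.3% was chosen after the values were seen. The 11 listed class II genes summed to 609, 1637, 541 and 278 CPM in members. In mid villus cells they summed to 530, 906, 562 and 325 CPM. Library 2 was also highest and library 4 lowest by this sum in tip and in lower villus cells, so the order was not particular to members.

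The lectins Reg3b and Reg3g were higher in libraries 1 and 2 than in libraries 3 and 4, while Reg3a, given above, was not. Reg3b was at 3645, 5692, 311 and 404 CPM and Reg3g at 866, 1274, 52.6 and 126 CPM. Reg3b had the same order in mid villus cells, at 10952, 24822, 968 and 1310 CPM. The 10% of members with the most Reg3b held 56.8%, 46.8%, 84.8% and 83.2% of its UMIs. A Reg3b UMI was found in 98.4%, 99.4%, 60.2% and 66.7% of members and in 74.9% and 33.0% of T cells of libraries 1 and 3, at the depths given above. After thinning the shares were 80.0%, 91.1%, 18.4% and 20.8% in members and 53.5% and 17.1% in T cells, so that library 3 was near its T-cell share and T cells differed between libraries in the same direction. Cyp1a1, a target of the aryl hydrocarbon receptor, had 188, 66, 0 and 27 UMIs among members. In library 4, 21 of the 27 lay in 1 cell. Members summed to 18076300, 4403000, 15707900 and 23079000 UMIs, so these counts do not rank the libraries. A Cyp1a1 UMI was found in 8.48%, 7.86%, 0.0% and 0.364% of members. The 0 of library 3 allows up to 3 UMIs in its summed 15707900.

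Other genes that stood apart in 1 library were fewer. Bco1, which cleaves beta-carotene, was at 3.65, 32.5, 1.21 and 4.90 CPM, and Hspa1a, a heat-shock protein, at 3.82, 15.4, 1.02 and 2.86 CPM. G6pc, the last step of glucose release, was at 54.9, 75.6, 21.7 and 154 CPM and G0s2, an inhibitor of fat breakdown, at 83.5, 121, 44.9 and 271 CPM, both highest in library 4. In library 3 the 4 globin genes Hbb-bs, Hbb-bt, Hba-a1 and Hba-a2 were above the others, but 1 cell held 3197 of their 3224 UMIs, and without that cell the count above in library 3 went from 8 to 4. The T-cell genes Ccl5 (22.5 CPM) and Gzma (16.8 CPM) were also above in library 3, where Ccl5 had 354 UMIs over 278 members, at most 7 in a cell. Apoc3 and Enpp3 differed by less than 1.5-fold between the highest and the lowest library. In any library 0 of 18 chylomicron and 0 of 20 fat uptake and storage genes stood apart. Of all genes, at most 0.715% stood above, or below, in any library, so these counts of 0 are near that share.

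**Figure D5:**
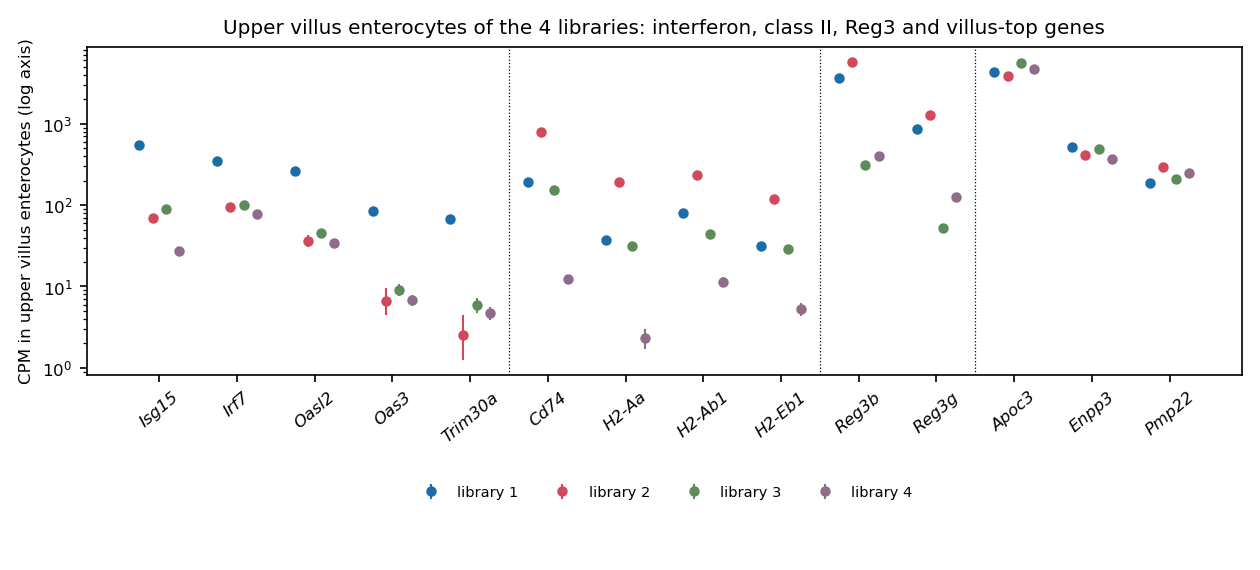
Points give the CPM of 14 genes in the members of each library (log axis) with exact 95% Poisson intervals for counting error, often smaller than the point. The 5 interferon genes at left are highest in library 1, the 4 class II genes are highest in library 2 and lowest in library 4, Reg3b and Reg3g are higher in libraries 1 and 2, and Apoc3, Enpp3 and Pmp22 at right lie close together.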

How the data were processed

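The deposited matrix held UMI counts per gene and barcode for 32285 genes, per the file headers whole and not normalised. Cell Ranger 6.1.1 and mm10 are named in the submitters' processing notes. Barcodes carry a library number that no source used here ties to a sample, so no test between diets was run. 0 library columns were left unused. The members and gene lists were chosen with earlier results of these data known. UMIs were summed per library and zone and given as CPM of all UMIs, and log2 ratios are on CPM plus 1, which understates changes of low genes. Of 664 list genes, 660 were found by symbol. Named genes are those of the rule, the markers, the 10 of largest median ratio called in each direction against mid villus and tip, in each list the 3 members of highest mean CPM and up to 3 called, the 6 genes that stood out most each way per library and the 6 of largest ratio each way along the Apoa4 bins; others were chosen after their values were seen. No doublet caller was run: the limits on Muc2, Ptprc, cycling and endocrine genes remove mixed types, not pairs of enterocytes. The scripts were tested on simulated data. Python 3.11.15, numpy 2.4.6, pandas 2.3.3, scipy 1.17.1 and matplotlib 3.10.9 were used. Alternatives were other limits, minimum CPM, fold, prior, bins and totals, and leaving out cells or libraries. Some genes that the naming rule picks are not reported here.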

Additional observations from a re-analysis of the deposited data

How the results depend on the processing

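No paired analysis was possible because no library is tied to a sample; for the same reason the diet comparison with DESeq2 size factors, a replicate block or without each replicate was not run. Of 190 alternative counts of cells or genes 144 stayed within the limit for calling them unchanged and 46 moved. A count has no direction and could not reverse. Of 3545 gene values 3208 stayed, 337 moved and 0 reversed. A gene called the same way in every library cannot reverse when a library is left out. A higher minimum CPM or fold leaves its ratio unchanged. Under those settings the lack of reversals was built in and is no sign of stability. The cause of the moves was not tested beyond the construction of each setting. Members numbered 749, 174 and 469 in libraries 1 to 3 at no more than 15% mitochondrial UMIs, 670, 139, 430 and 435 in libraries 1 to 4 with Apoa4 at 3% or more, and 564 in library 2 and 1770 in library 4 with Apoa4 at 1.5% or more. Against mid villus, 203 genes were higher at a minimum of 30 CPM, 75 higher and 124 lower at 2-fold, 160 and 268 with a prior of 10 CPM, and 169 and 205 against mid villus cells at 1 to 2% Apoa4. Against the tip, 245 were higher at 30 CPM, 75 higher and 128 lower at 2-fold, and 193 higher with a prior of 10. Against the lower villus, 1108 were lower at 30 CPM, and 542 higher and 1092 lower at 2-fold. Along the bins, 276 were higher with edges at 2.5%, 3% and 4%, and 103 higher and 127 lower at 2-fold. Genes below in library 1 numbered 1 with rule and mitochondrial genes left out of the total, 1 without the 5% of cells with the most UMIs and 2 at no more than 15% mitochondrial UMIs. Genes above in library 3 numbered 13 with equal weight per bin, 4 without the cells with the most UMIs and 4 without the globin cell, and above in library 4 they numbered 5 without the cells with the most UMIs. A prior of 10 CPM gave 31 above in library 1, 8 above and 1 below in library 2, 4 above and 2 below in library 3, and 1 above and 5 below in library 4. Leaving out each library in turn gave 310 to 396 higher and 430 to 517 lower against mid villus, 425 to 569 and 315 to 373 against the tip, 1095 to 1217 and 1870 to 1956 against the lower villus, and 668 to 822 and 605 to 628 along the bins (822 and 628 without library 1, 819 and 605 without library 3, 668 and 611 without library 4). Leaving a library out loosens a rule that asks for the fold in every library used, so these higher counts are built in. Library 2, with 4403000 UMIs in 318 members, limits weakly expressed genes.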
